A study of Mus musculus with 24 samples.

Results

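Hmgcs1, Idi1, Fdps, Sqle, Lss, Cyp51, Srebf2 and Insig1 are 8 genes of cholesterol synthesis and of its control, and were described here over 3 stages of early thymocyte development. The genes were listed by function. Each was read through its main probe set, the one with the highest mean signal over all 24 arrays among those that match that gene alone. The 8 genes had 19 probe sets of the 45037 that are not array controls, and 8 of 18193 genes with a probe set of their own. All 8 main probe sets were among the 27022 tested, and 18 of the 19 probe sets were.

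Cells make cholesterol from acetyl-CoA through mevalonate, isoprenoid units, squalene and lanosterol. The transcription factor SREBP2, encoded by Srebf2, raises transcription of the enzymes and of uptake genes when membrane sterol is low, and the INSIG proteins hold its precursor in the endoplasmic reticulum when sterol is plentiful. Dividing cells, developing T cells among them, need sterol for new membrane.

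The arrays measured RNA of thymocytes sorted into double-negative (DN) stages, named for the absence of CD4 and CD8. DN1 was sorted by CD44 without CD25, DN2 by both and DN3 by CD25 without CD44. The study's array methods name only CD44 and CD25 for this sort. The cells came from IgHμ-TLX1Tg Prkdc Scid/Scid mice (TLX1), which the labels call HOX11 positive, and from Prkdc Scid/Scid mice (control). The homozygous Scid mutation, which impairs the DNA repair kinase DNA-PK and blocks maturation past DN3, was thus carried by both genotypes. The human oncogene was under the IgHμ promoter, an immunoglobulin heavy chain promoter whose main site of action is the B lineage. By qRT-PCR the study detected the transgene in sorted DN1, DN2 and DN3 thymocytes of TLX1 mice. Its level in thymocytes was lower than in B220-positive spleen cells of IgHμ-TLX1Tg mice. The labels give all mice as outbred ICR and as 6 to 8 weeks old. The study's methods describe a cross of transgenic mice on the CD1 background with Scid mice on an ICR background, and an age range that starts lower. Each genotype gave 4 pools of 2 to 5 mice of 1 sex, and each pool gave 1 array per stage, so that there were 8 pools and 24 arrays. The values are MAS5 signals, a linear brightness scaled to a trimmed mean of 150 per array, and differences are given on the log2 scale. A signal of 1 probe set is not set against that of another.

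The DN1 arrays of TLX1 pool 2 and control pool 3 stood apart. Rag1, the recombinase induced after DN1, had DN1 signals of 199, 3192, 46.9 and 127 in TLX1 pools 1 to 4 and of 35.5, 75.2, 3769 and 126 in control pools 1 to 4. Ptcra, which encodes the pre-T cell receptor alpha chain, had 102, 677, 54.5 and 46.5 in TLX1 pools and 59.1, 77.3, 1296 and 20.8 in control pools. The same pools had the highest DN1 signal of the mitotic topoisomerase Top2a, 3471 and 3556 against 878 to 1784 in the other 6 pools. Il2ra (CD25) was not raised with them, with 523 in TLX1 pool 2 and 574 in control pool 3 against 488 to 1171 in the other 6 pools. These are the pools in which, by the study's description of the cohorts, a larger share of cells lay outside the 3 DN gates. Without them the 5 genes that rose at DN2 against DN1 over all pools were still called, as was Srebf2, none was called at DN3 against DN2, and the same 6 were called at DN3 against DN1. Cd44, one of the 2 genes of the sort, had signals of 892 to 1913 at DN1, 80.3 to 153 at DN2 and 9.52 to 29.0 at DN3, so that its RNA was already low at DN2, a stage sorted as CD44 positive.

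Short stretches of 3 promoters are shown to set the boxes beside the values: Hmgcs1, which rose at DN2, and Srebf2, which did not pass the test there, hold both boxes named next, and Idi1, which rose at DN2, holds the second only. The letters TCACCCC are the core of the sterol regulatory element that SREBP binds, and CCAAT, read ATTGG on the other strand, is the box of NF-Y, its usual partner. Capitals mark these letters, with the element of Hmgcs1 extended to TCACCCCAC. The sequences are those of RefSeq on GRCm38.p6, all from the plus strand, and end upstream of the annotated start.

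Hmgcs1, chr13:119690165-119690320: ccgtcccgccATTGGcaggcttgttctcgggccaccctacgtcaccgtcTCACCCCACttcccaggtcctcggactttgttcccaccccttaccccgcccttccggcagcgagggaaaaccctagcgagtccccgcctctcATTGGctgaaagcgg

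Idi1, chr13:8885551-8885605: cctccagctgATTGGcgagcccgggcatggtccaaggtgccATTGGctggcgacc

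Srebf2, chr15:82147097-82147148: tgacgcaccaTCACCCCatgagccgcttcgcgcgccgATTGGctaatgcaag

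Promoter windows of 300 bases, from 250 before to 50 after the start, were at hand for 6 of the 8 genes, all except Sqle and Fdps. TCACCCC, searched on both strands, lay in those of Hmgcs1 and Srebf2 and in 4.97% of all 32851 windows. TCACNCCAC, which overlaps it in Hmgcs1, lay in that window alone among the 6 and in 1.24% of all windows. CCAAT and GGGCGG, the GC box, were in all 6, against 37.4% and 35.7% of all windows. CACGTG, the E-box that SREBP also recognises, was in that of Insig1 only, and in 7.15% of all windows. A match is a run of letters and not evidence of binding.

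Between DN1 and DN2, 5 of the 8 genes rose, none fell, and the 3 that did not pass the test were Lss, Srebf2 and Insig1. The 5 were the enzymes Sqle, Fdps, Idi1, Hmgcs1 and Cyp51, by 1.60-fold to 3.87-fold. Stages were compared within pools by limma over all 27022 probe sets, with an adjusted p under 0.05 as a call. By this rule 28.5% of all probe sets were higher at DN2 and 31.2% lower, so that a large part of the transcriptome was called here. Of these calls 47.7% were higher, against 58.7% after quantile normalization and 74.0% after median centring. Hmgcs1, Sqle, Idi1 and Cyp51, 4 of the 8, were higher in all 8 pools, as were 17.1% of all probe sets. The median log2 change of the 8 genes was 0.73, against -0.06 over all probe sets tested. The fraction was bulk RNA, in which fewer cells of a type and less RNA per cell cannot be told apart.

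The DN1 fraction also carried RNA of other cells. The 7 markers of NK cells had a mean log2 signal of 10.84 to 11.66 in TLX1 and 10.34 to 11.75 in control DN1 arrays, and of 5.99 to 6.38 in TLX1 and 6.09 to 6.14 in control DN2 arrays, and all 7 were called lower at DN2. None of these markers was at or near 0 at DN1. The 9 myeloid markers tested, of 10 measured, and the 5 dendritic cell markers tested, of 7 measured, were all lower at DN2 too, with median log2 changes of -2.96 and -3.74. The summed signal of the 10 myeloid markers was 11153 to 20352 at DN1 in TLX1 and 6985 to 15508 in control pools, and at DN2 1175 to 1506 in TLX1 and 1403 to 1591 in control pools. Of the remaining marker lists, the early thymocyte list had 6 genes higher and 1 lower of 9 tested, the B cell list 2 and 0 of 4, the mast cell and basophil list 1 and 2 of 3, the erythroid list 0 and 1 of 1, and the thymic stromal list 1 and 1 of 4. The part of these cells in the changes of the 8 genes was not tested. At DN1 the lowest mean log2 signals of NK and myeloid markers were in TLX1 pool 2 (10.84 and 8.37) and control pool 3 (10.34 and 7.91). The other pools had 11.24 to 11.75 and 8.50 to 9.45. Dendritic means were 6.24 and 6.08 in these pools, near the 6.17 of control pool 4. Values without these pools thus rest on DN1 arrays with higher NK and myeloid signal, and the part of this was not tested.

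**Figure D1:**
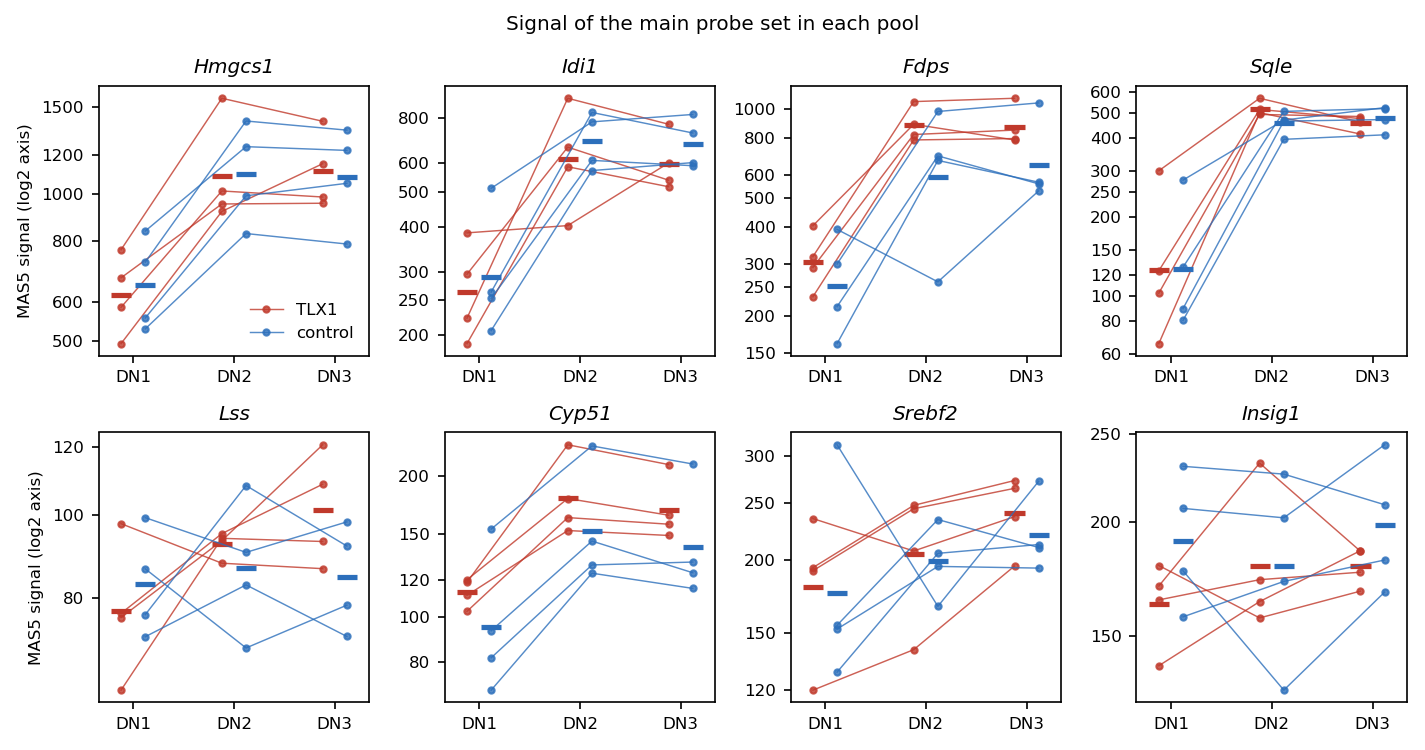
MAS5 signal of the main probe set of each gene (vertical, log2 axis) at DN1, DN2 and DN3, with TLX1 pools in red to the left of control pools in blue. Thin lines join the arrays of a pool and short bars mark the geometric mean of 4 pools. Sqle had DN2 signals of 397 to 569 in the 8 pools and DN1 signals of 65.6 to 301.

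Hmgcs1 encodes the cytosolic HMG-CoA synthase, which makes the substrate of the rate-limiting step of the pathway. Its signals in TLX1 pools 1 to 4 were 585, 672, 493 and 768 in DN1, 1012, 952, 919 and 1566 in DN2 and 984, 955, 1151 and 1405 in DN3 cells. In control pools 1 to 4 they were 556, 529, 838 and 724 in DN1, 989, 828, 1247 and 1407 in DN2 and 1049, 788, 1225 and 1348 in DN3 cells. Every pool was higher at DN2 than at DN1, but the lowest DN2 array, that of control pool 2, was below the highest DN1 array, that of control pool 3. The log2 change was 0.78 (SE 0.081, adjusted p = 1.44e-06, limma), or 1.72-fold with a 95% interval of 1.52 to 1.93, and 0.86 without TLX1 pool 2 and control pool 3.

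Idi1, the isomerase that interconverts the 2 isoprenoid building blocks, had signals of 295, 384, 189 and 223 in DN1, 664, 403, 586 and 908 in DN2 and 538, 601, 516 and 769 in DN3 cells in TLX1 pools. In control pools it had 206, 253, 511 and 263 in DN1, 572, 611, 781 and 829 in DN2 and 602, 590.2, 819 and 727 in DN3 cells. The 2 highest DN1 signals were those of TLX1 pool 2 and control pool 3, the pools that stood apart, and the smallest DN2 over DN1 change, 0.07 on the log2 scale, was in TLX1 pool 2. Over all 8 pools the log2 change was 1.24 (SE 0.17, adjusted p = 2.27e-05, limma), and without these pools 1.54.

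Fdps makes farnesyl diphosphate, the branch point between sterols and the prenyl groups of proteins. Its signals were 292, 404, 232 and 318 in DN1, 821, 889, 787 and 1061 in DN2 and 849.99, 787, 796 and 1089 in DN3 cells in TLX1 pools. In control pools they were 215, 161, 393 and 299.9 in DN1, 696, 671, 261 and 982 in DN2 and 559, 567, 529.8 and 1050.1 in DN3 cells. The exception was control pool 3, where Fdps was lower at DN2 than at DN1 by 0.59 on the log2 scale. The index of RNA quality is the log2 ratio of 3' to 5' control probe sets, and a higher index stands for poorer RNA. In the DN2 array of control pool 3 it was 0.99, the poorest, against -0.02 to 0.57 in the other 23 arrays. The part of RNA quality in the Fdps value was not tested. Over all 8 pools the log2 change was 1.38 (SE 0.22, adjusted p = 7.38e-05, limma), and without TLX1 pool 2 and control pool 3 it was 1.74.

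Sqle encodes squalene epoxidase, which performs the first oxygenation of the sterol branch. It had DN1 signals of 125, 301, 102 and 65.6 in TLX1 pools and of 129, 80.5, 277 and 89.2 in control pools. At DN2 the signals were 516, 569, 494 and 502 in TLX1 pools and 507, 397, 469.6 and 466 in control pools. At DN3 they were 476, 462, 485 and 416 in TLX1 pools and 519.8, 413, 524 and 472 in control pools. The lowest DN2 array was above the highest DN1 array, and how many of all probe sets show this was not counted. Sqle had the largest change of the 8 genes, and 97.5% of all probe sets tested had a lower value. The log2 change was 1.95 (SE 0.22, adjusted p = 2.82e-06, limma), or 3.87-fold with a 95% interval of 2.80 to 5.33. Without TLX1 pool 2 and control pool 3, whose DN1 signals of Sqle were the 2 highest, it was 2.32.

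**Figure D2:**
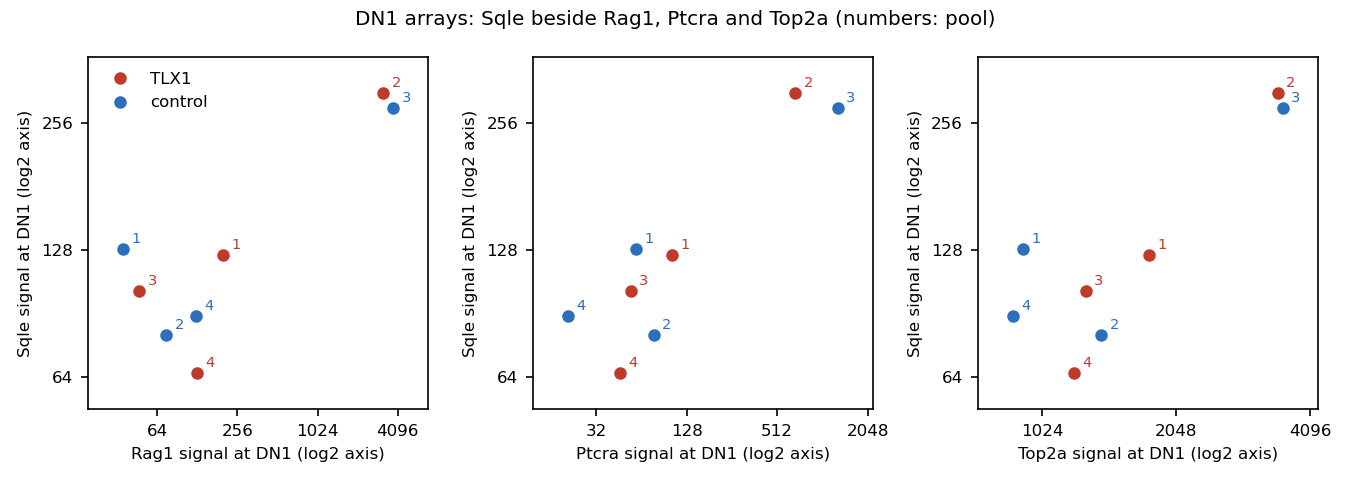
DN1 signals of Sqle (vertical) against those of Rag1, Ptcra and Top2a (horizontal) in the 8 DN1 arrays, all on log2 axes, with TLX1 pools in red and control pools in blue and the pool number beside each point. TLX1 pool 2 (Sqle 301, Rag1 3192) and control pool 3 (Sqle 277, Rag1 3769) lie away from the other 6 pools, where Sqle was at 65.6 to 129.

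Cyp51 and Lss act on either side of lanosterol. Cyp51, the lanosterol demethylase, had signals of 119.97, 111, 103 and 118 in DN1, 179, 153, 163 and 233 in DN2 and 165, 149, 158 and 212 in DN3 cells in TLX1 pools. In control pools it had 93.3, 69.6, 81.7 and 154 in DN1, 145, 124, 129 and 232 in DN2 and 124, 115, 131 and 212 in DN3 cells. Every pool was higher at DN2, with a log2 change of 0.68 (SE 0.066, adjusted p = 7.70e-07, limma), or 0.71 without TLX1 pool 2 and control pool 3, although pool 4 of control mice at DN1 lay within the range of DN2. Lss, which cyclises squalene epoxide to lanosterol, was 62.4 to 97.7 in TLX1 and 72.0 to 99.3 in control pools at DN1, and 87.8 to 95.1 in TLX1 and 69.9 to 108 in control pools at DN2. Its log2 change was 0.16 with a 95% interval of -0.06 to 0.38 (adjusted p = 0.186, limma), and it was higher in 5 of 8 pools. Without TLX1 pool 2 and control pool 3 it was 0.09 and not called. It was called higher at DN2 after quantile normalization, at 0.35, which moved the median of all probe sets to 0.09, and after median centring, at 0.51.

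The 2 genes of sterol sensing did not pass the test between DN1 and DN2. Srebf2 had signals of 194, 235, 192 and 120.1 in DN1, 248, 207, 244 and 141 in DN2 and 273, 237, 265 and 195 in DN3 cells in TLX1 pools. In control pools it had 155, 129, 314 and 153 in DN1, 234, 205, 167 and 195 in DN2 and 209.9, 212, 272 and 194 in DN3 cells. The log2 change between DN1 and DN2 was 0.18 with a 95% interval of -0.12 to 0.49 (adjusted p = 0.285, limma), and control pool 3, with the highest DN1 signal, fell by 0.91 on the log2 scale. Without control pool 3 the change was 0.36 (adjusted p = 0.00274, limma), and without that pool and TLX1 pool 2 it was 0.43 (adjusted p = 4.92e-04, limma). For this main probe set, the absence of a call over all 8 pools thus depended on control pool 3. In the second probe set control pools 1 and 2 fell as well, from 211 to 176 and from 221 to 177. Control pool 3 and TLX1 pool 2 also fell there, and the other pools rose. Srebf2 was also called after median centring, at 0.53 (adjusted p = 0.00610, limma). Insig1, the sterol-dependent retention protein and itself a target of SREBP, was 139 to 179 in TLX1 and 158 to 230.4 in control pools at DN1, and 157 to 232 in TLX1 and 131 to 226 in control pools at DN2. Its log2 change was 0.02 with a 95% interval of -0.16 to 0.21 (adjusted p = 0.822, limma), and it was called after median centring, which raised it to 0.37 (adjusted p = 0.00265, limma), but not after quantile normalization, at 0.09. Without TLX1 pool 2 and control pool 3 it was 0.07 and not called.

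Between DN2 and DN3 none of the 8 genes passed the test (limma; 0 at an unadjusted p under 0.05 as well), where 6.93% of all probe sets were higher at DN3 and 4.07% lower. The calls were higher in 63.0% here, 45.7% after quantile normalization and 18.8% after median centring. The log2 changes ran from -0.10 for Cyp51 to 0.19 for Srebf2, and the widest 95% interval, that of Sqle, was -0.52 to 0.41. Sqle was lower at DN3 in all 4 TLX1 pools and higher in all 4 control pools, and of all probe sets 0.322% moved in opposite directions in the pools of the 2 genotypes. Set against DN1, DN3 was higher for 6 of the 8 genes, where 30.1% of all probe sets were higher. Of all calls in this contrast 54.6% were higher, and 70.2% after median centring. In 5 of the 8, the enzymes that rose at DN2, all 8 pools were higher, as in 20.2% of all probe sets. The log2 changes were 1.90 for Sqle, 1.44 for Fdps, 1.21 for Idi1, 0.79 for Hmgcs1, 0.58 for Cyp51 and 0.37 for Srebf2, each with an adjusted p from 1.26e-06 to 0.0378 (limma). Without TLX1 pool 2 and control pool 3 they were 2.27 for Sqle, 1.68 for Fdps, 1.39 for Idi1, 0.87 for Hmgcs1 and 0.59 for Cyp51. Srebf2 was the weakest of these calls: it was higher in 7 of 8 pools, and its adjusted p was 0.0889, 0.0850 and 0.113 without TLX1 pools 1, 3 and 4, and 0.0791, 0.113 and 0.0794 without control pools 1, 2 and 4 (limma). Without the pools that stood apart it was 0.53 (adjusted p = 1.19e-04, limma).

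The change with stage was read in each genotype from the same fit. The 5 enzymes that rose at DN2 passed the test in TLX1 pools and in control pools, where 22.8% and 21.9% of all probe sets were higher. The log2 change of Sqle was 2.04 (SE 0.31) in TLX1 and 1.86 (SE 0.31) in control pools, that of Fdps 1.53 and 1.22 (SE 0.31 each), that of Idi1 1.22 and 1.25 (SE 0.24 each), that of Hmgcs1 0.80 and 0.75 (SE 0.11 each) and that of Cyp51 0.67 and 0.68 (SE 0.093 each). At DN3 against DN1, 6 of the 8 were called higher in TLX1 pools and 5 in control pools, where 23.2% and 22.4% of all probe sets were. The additional call was Lss, with 0.39 (adjusted p = 0.0407, limma) in TLX1 pools and 0.03 in control pools, and Srebf2 passed in neither genotype alone. The difference between the genotypes in the stage change was tested for all 8 genes and none was called (adjusted p of at least 0.9998 in each of the 3 contrasts, limma; 0 of 8 at an unadjusted p under 0.05, against 3.60%, 2.89% and 3.23% of all probe sets).

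The genotypes were then set against each other stage by stage, which asks whether the transgene moved the pathway before leukaemia. None of the 8 genes was called at DN1, DN2 or DN3 (limma), none had an unadjusted p under 0.05 or passed the methods' unpaired test at p of at most 0.05 and 1.4-fold, and in none did the 4 TLX1 pools lie apart from the 4 control pools. Of all probe sets, 0.0037% at DN1, 0.0037% at DN2 and 0.0185% at DN3 were called, 1.72%, 3.53% and 6.02% had an unadjusted p under 0.05, 1.01%, 1.46% and 3.04% passed the methods' test, and in 1.25%, 2.75% and 3.89% the genotypes did not overlap. For the 8 genes the median log2 change was -0.04 (DN1), 0.07 (DN2) and 0.08 (DN3).

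Fdps had the largest differences, 0.27 at DN1, 0.59 at DN2 and 0.43 at DN3 on the log2 scale, with 95% intervals of -0.42 to 0.97, -0.27 to 1.45 and -0.12 to 0.98. At DN2 the 4 TLX1 pools had 787 to 1061 and 3 of the control pools 671 to 982, and without control pool 3, at 261, the difference was 0.20. With the RNA quality index as a covariate Fdps had -0.21 (DN1), 0.04 (DN2) and 1.00 (DN3), so that its direction in DN1 cells changed with the index. Cyp51 had 0.25, 0.24 and 0.26 at the 3 stages, and its highest signals at DN2 and DN3 were those of pool 4 in both genotypes. Idi1 was lower in TLX1 pools by 0.14, 0.17 and 0.18, within intervals that all include 0. Sqle had -0.01, 0.18 and -0.07, and its interval at DN1, -1.22 to 1.21, was the widest of the 8 genes, where the DN1 pools spread from 65.6 to 301. Hmgcs1, Lss, Srebf2 and Insig1 had differences between -0.23 and 0.26. At DN3 the index of RNA quality also separated the genotypes, with 0.10 to 0.34 in TLX1 and 0.50 to 0.57, the poorer side, in control arrays. Genotype and index thus cannot be told apart at DN3. The DN3 values with the index as a covariate rest on no range of the index that the genotypes share.

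**Figure D3:**
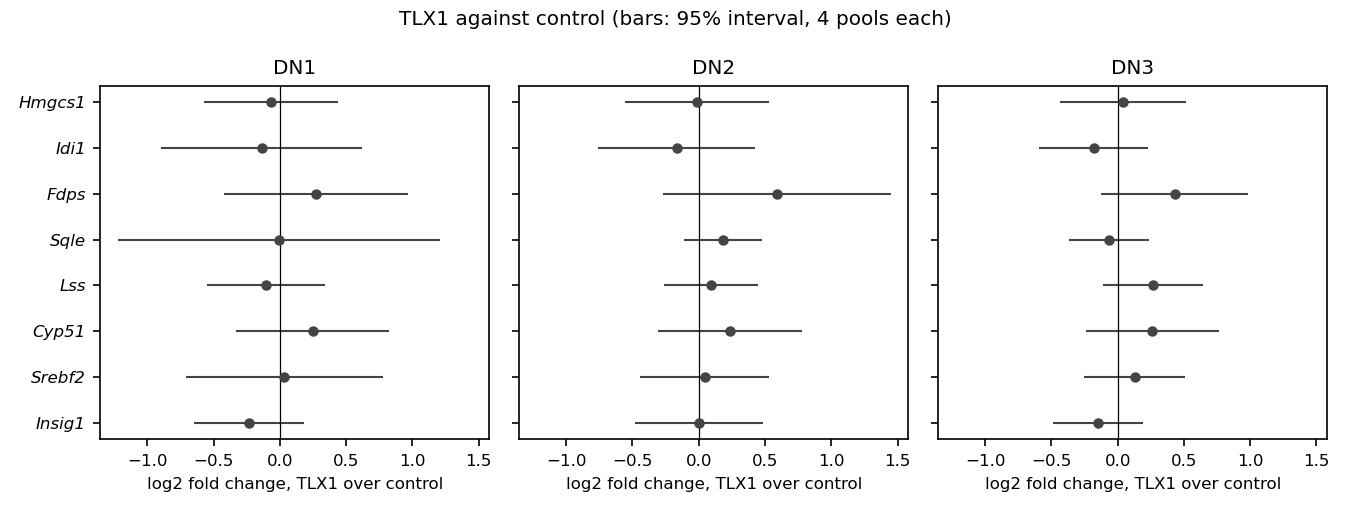
Log2 fold change of TLX1 over control pools (horizontal) for the 8 genes at DN1, DN2 and DN3, each from 4 pools per genotype, with bars for the 95% interval. All 24 intervals include 0, and that of Sqle at DN1 runs from -1.22 to 1.21.

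The other probe sets of the genes were read as a check. For Hmgcs1, 4 further probe sets had log2 changes between DN1 and DN2 of 0.86, 0.92, 0.58 and 0.19, of which the last, a dim one with a mean signal of 23.8, was not called. The second probe set of Idi1 had 1.28, and those of Cyp51 had 1.12 and 1.24, all called and those of Cyp51 above the 0.68 of the main one. Lss was split: the brighter of its 2 further probe sets was called with 0.30 (adjusted p = 0.0352, limma) and the dimmer was not, with 0.11. The second probe set of Srebf2 had 0.01 at DN2 against DN1 and 0.25 at DN3 against DN1 (adjusted p = 0.140, limma), so that the call of the main probe set at DN3 was not shared. The second probe set of Fdps had a mean signal of 1.68 and did not pass the filter, and Sqle and Insig1 have 1 probe set each. No probe set of the 8 genes was called between TLX1 and control.

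Of 12 other measured enzymes of sterol synthesis, 6 rose and 3 fell between DN1 and DN2. Those that rose most were Dhcr7, a reductase at the end of the pathway (1.19), the sterol reductase Tm7sf2 (0.96), the squalene synthase Fdft1 (0.77) and the methyl oxidase Msmo1 (0.62). Those that fell were the desaturase Sc5d (-0.73), the mevalonate diphosphate decarboxylase Mvd (-0.70) and the isomerase Ebp (-0.55). Mvd fell while Idi1, which acts on its product, rose. At DN3 against DN2, Dhcr7 alone of the 12 passed the test (0.48), and at DN3 against DN1 the same counts, 6 higher and 3 lower, were led by Dhcr7 (1.68), Tm7sf2 (0.91), Fdft1 (0.78) and Msmo1 (0.71) and by Sc5d (-0.73), Ebp (-0.68) and Mvd (-0.53). Median centring of the arrays, which raised every DN2 against DN1 value by 0.34, took the call from Ebp (-0.21).

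Among 5 other regulators of SREBP, the escort protein Scap rose (0.57), and the retention protein Insig2 (-0.39) and Srebf1, which encodes SREBP1 (-0.25), fell at DN2 against DN1. Of 7 genes of uptake and transport tested, 3 rose, the lipoprotein receptor Scarb1 (0.80), the lysosomal exporter Npc1 (0.63) and the sterol carrier Stard4 (0.27), and the lysosomal lipase Lipa fell (-0.22). Of 5 genes of efflux, 3 fell, Mylip, which degrades lipoprotein receptors (-1.37), the transporter Abca1 (-1.16) and Apoe (-0.67), and the transporter Abcg1 rose (0.34). Apoe and Abca1 are also expressed by macrophages, and the myeloid markers fell over the same stages. After median centring none of Insig2 (-0.04), Srebf1 (0.10), Lipa (0.12) and Apoe (-0.33) was called, and Srebf1 and Lipa changed sign.

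At DN3 against DN2, few of these genes passed the test: the protease Mbtps1, which cleaves SREBP (0.23), and Mylip (0.47) were higher, and Apoe was lower (-2.89). Median centring, which lowered every value of this contrast by 0.15, took the call from Mbtps1 (0.08) and Mylip (0.31). At DN3 against DN1, 2 of the 5 regulators were higher, Scap (0.44) and Mbtps1 (0.35), and none was lower. In uptake and transport 4 of 7 were higher, Scarb1 (0.90), Npc1 (0.61), Stard3 (0.33) and Stard4 (0.21), and none was lower. In efflux Abcg1 was higher (0.50), and Apoe (-3.56), Mylip (-0.91) and Abca1 (-0.55) were lower, of which Abca1 was not called after median centring (-0.35).

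At DN2 against DN1, Fads2 had the largest change among the sterol and fatty acid genes. Of 11 fatty acid genes, 5 rose and none fell, the desaturases Fads2 (3.03), Fads1 (1.44) and Scd2 (1.25) and the elongases Elovl6 (1.21) and Elovl5 (0.53), whereas the synthase Fasn had 0.12 and Acaca, the carboxylase that supplies it, had 0.18, neither called. The same 5 genes were higher at DN3 against DN1, from 0.45 for Elovl5 to 2.90 for Fads2. In the prenylation branch, 2 of 8 rose, Pdss2 (0.49) and Rabggtb (0.28), and 2 fell, Rabggta (-0.83) and Ggps1 (-0.33), the last not called after median centring and then at 0.01. At DN3 against DN2, Ggps1 was higher (0.21, lost after quantile normalization at 0.12 and median centring at 0.06) and Fntb lower (-0.34), and at DN3 against DN1, Pdss2 (0.45) and Rabggtb (0.20) were higher and Rabggta (-0.58) and Fntb (-0.39) lower, of which Rabggtb was not called after quantile normalization (0.17) nor Fntb after median centring (-0.20). All 11 measured genes of proliferation rose at DN2 against DN1 (median 0.88, from 0.39 for Pcna to 1.28 for Mcm3) and all 11 had negative values at DN3 against DN2 (median -0.55), where Mki67 alone passed the test (-0.51, and -0.45 without a call after quantile normalization). At DN3 against DN1, 2 of the 11 passed, Mcm3 (0.83) and Mcm5 (0.53). In none of these lists was a gene called between TLX1 and control, where 0.0037% (DN1), 0.0037% (DN2) and 0.0185% (DN3) of all probe sets were. Of the 11 proliferation genes, 10, 9 and 7 had positive values at the 3 stages, with median log2 changes of 0.17, 0.17 and 0.11. By qRT-PCR the study reported raised Aurka, Bub1, cyclin A and cyclin B1 in TLX1 thymocytes, and raised Birc5 in those of DN2. The lack of calls thus does not show equal levels.

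**Figure D4:**
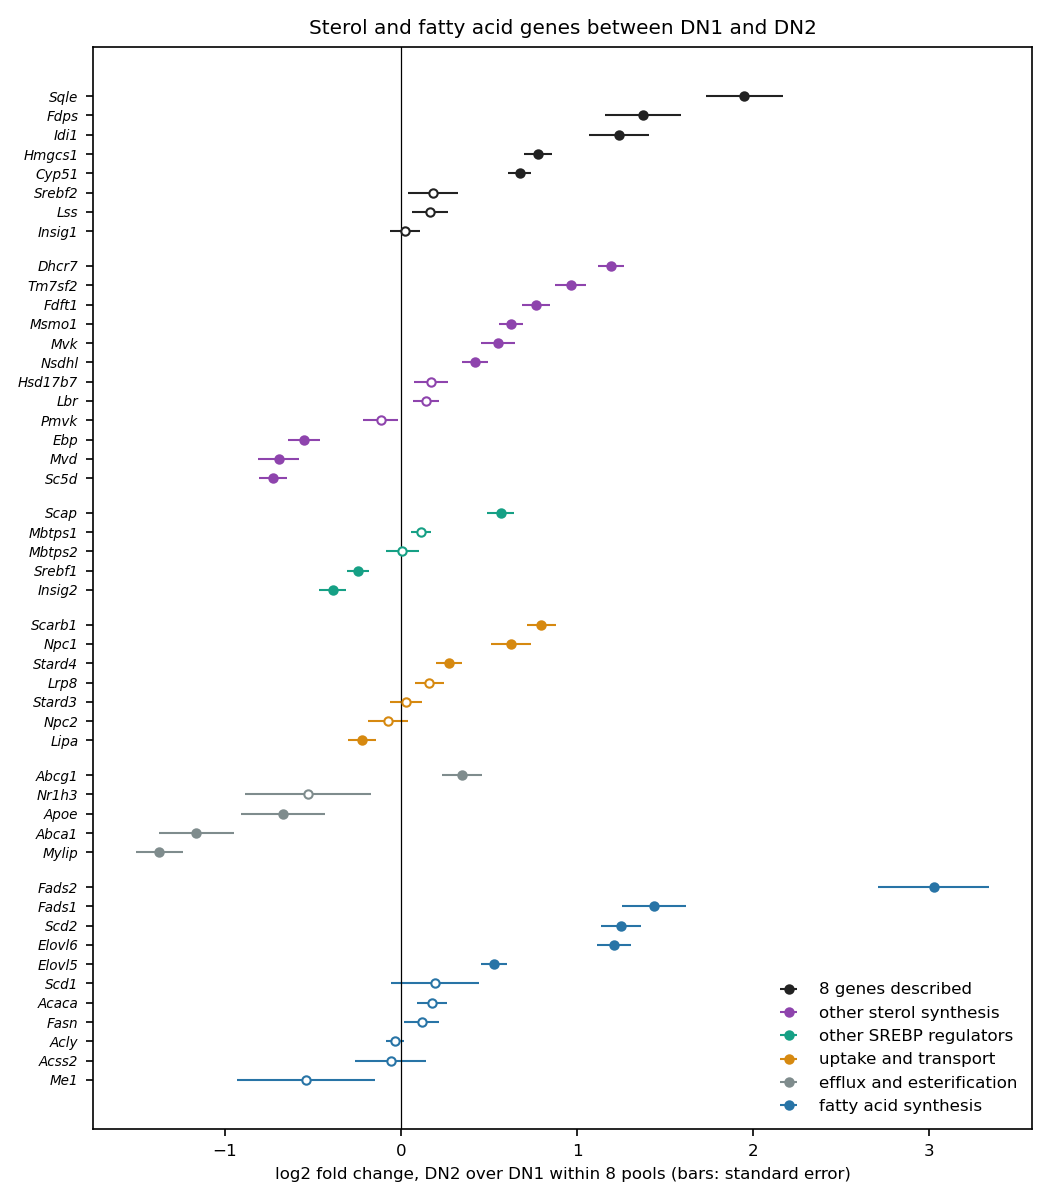
Log2 fold change of DN2 over DN1 within 8 pools (horizontal) for the 8 genes described and for 5 related gene groups, with bars for the standard error. Filled points passed the test (adjusted p under 0.05) and open points did not. Fads2 (3.03) and Sqle (1.95) lie farthest to the right, and Mylip (-1.37) farthest to the left.

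The mean of the 8 genes over the 24 arrays, each centred, was matched most closely by Msh6 of mismatch repair (Pearson r = 0.967), the membrane protein gene Emp1 (0.967), Scd2 (0.964), Ift57 of intraflagellar transport (0.963) and Nme7 (0.962). The 24 points share pools and stages and largely separate DN1 from DN2 and DN3. Among the 8 genes themselves, r with that mean was 0.93 for Sqle, Idi1 and Fdps, 0.90 for Hmgcs1 and 0.79 for Cyp51, and 0.51 for Srebf2, 0.37 for Insig1 and 0.35 for Lss. These values are raised in advance, because the mean includes the gene itself. The mean was centred but not scaled, so that genes with larger changes weigh more in it.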

How the data were processed

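RNA of 24 sorted fractions was hybridised to Affymetrix mouse arrays. The authors deposited intensity values, linear MAS5 signals. The submitters' processing notes name the Affymetrix Expression Console. Signals under 1 were set to 1 and log2 transformed. The 60% of the 45037 probe sets with the highest mean were tested (27022). Genotypes were compared at each stage by limma 3.58.1 (R 4.3.3) on 8 arrays. Stages and the interaction were fitted over 24 arrays with the pool, which is the replicate, as a fixed block. Pools are separate mice. The p-values between genotypes at a stage measure the spread between pools. Those of the stages and the interaction measure how far the change within a pool varied from pool to pool. P-values were adjusted by Benjamini-Hochberg over all tested probe sets. The fits were tested on simulated data. The number of arrays limits the precision. With 4 pools against 4, an exact permutation test cannot go below p = 0.0286.

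The 8 genes, the 16 gene lists and the pathway and marker genes were chosen with earlier results of these data known. All 8 genes are described, and of each sterol, lipid and proliferation list up to 4 called genes in each direction with the largest change are named. Elovl5, Fasn, Acaca and Pcna were named after their values were seen. Of 143 listed genes, 17 are not analysed here. Of the probe sets, 932 match several genes and 9160 none, and neither kind was used by gene.

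Alternatives were quantile normalization, median centring, no filter, a filter of 40%, an offset of 32, leaving out each pool or the 2 pools with most cells outside the gates, the RNA quality index (the log2 ratio of 3' to 5' control probe sets) or sex as a covariate, a random or replicate block, the methods' unpaired test and the median over probe sets. Promoter windows and letters came from RefSeq (GRCm38.p6).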

Additional observations from a re-analysis of the deposited data

Results flagged for a closer look

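Among 48 groups of 4 pools (8 genes, 2 genotypes, 3 stages), 1 held a pool far from the others. Fdps in control DN3 thymocytes had 1050.1 in pool 4 against 529.8 to 567 in the other 3 pools. On the log2 scale this was a gap of 0.902 of the group's range, above the critical value of 0.829. Chance gives such a gap in about 1 of 20 groups. Pool 4 also had the highest Fdps signal of control mice at DN2 (982) and the highest of TLX1 mice at DN2 and DN3 (1061 and 1089).

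Sqle moved in opposite directions between DN2 and DN3 in the 2 genotypes. It was lower at DN3 in all 4 TLX1 pools, with log2 changes of -0.30 to -0.03, and higher in all 4 control pools, with 0.02 to 0.16. Of all 27022 probe sets tested, 87 (0.322%) moved in opposite directions in this way, in either orientation. The difference between the genotypes was -0.25 on the log2 scale, and it did not pass the test of the interaction (adjusted p = 0.9999, limma).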

How the results depend on the processing

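No gene of the 8 was called between TLX1 and control, and none in the interaction, in any alternative run, including the methods' unpaired test. The count of genes called at DN2 against DN1 was 5, and 8 after median centring, which moved the median of all probe sets to 0.29 (main -0.06). Leaving out a pool gave 5 to 6. Lss was also called there after quantile normalization, and Srebf2 without the pools that stood apart. At DN3 against DN2 it was 0, and 1 after median centring (median of all -0.08, main 0.08). At DN3 against DN1 it was 6, with 7 after quantile normalization, which added Lss (0.30), and 8 after median centring, which added Lss (0.40) and Insig1 (0.29), and leaving out a pool gave 5 to 6. Without the pool as a block Srebf2 lost its call at DN3 against DN1 (adjusted p = 0.0992, limma), as it did with no filter (0.0702). The replicate numbers were also tried as a block between TLX1 and control: 0 genes were called at each stage. Deviations of same-numbered pools correlated at -0.35 to 0.48, over 0.1 in 6 of 12 pairs. Pools of number 4 had 0.48, 0.40 and 0.365 at DN1, DN2 and DN3, and those of number 1 had 0.13, 0.16 and 0.19. Those of number 3 were negative at every stage. The numbers thus do not pair the genotypes throughout, although pools 4 deviated alike at every stage.

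Over all probe sets, TLX1 against control calls were 1 at DN1, 1 at DN2 and 5 at DN3, and ranged over the alternatives from 0 to 5, 0 to 11 and 0 to 7, highest with no filter. Calls at DN3 against DN2 were 2972, from 758 without the pool as a block to 4593 without control pool 3, and those of the other 2 stage contrasts stayed within 1.5 times the count given.

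Differences between TLX1 and control that changed sign in an alternative were not called in either fit, and the cause was not tested. Those with the RNA quality index were not all small: Fdps at DN1 had 0.27 in the fit reported. With an offset of 32 Sqle had 0.0032 at DN1 and Insig1 -0.00099 at DN2. Without TLX1 pool 2 and control pool 3 Hmgcs1 had 0.019 at DN1, and at DN2 Hmgcs1 had 0.11, Idi1 0.10 and Srebf2 -0.046. With the RNA quality index Fdps had -0.21, Lss 0.022 and Srebf2 -0.69 at DN1, Hmgcs1 0.20, Idi1 0.051 and Srebf2 -0.22 at DN2, and Idi1 0.43 and Srebf2 -0.60 at DN3. The genotypes share no range of the index at DN3. Quantile normalization gave -0.029 for Insig1 and median centring 0.089 for Hmgcs1 at DN2. The median over probe sets was -0.20 for Srebf2 at DN1 and -0.15 for Lss at DN2. Leaving out 1 pool gave, at DN1, -0.12 to 0.31 for Srebf2, -0.17 to 0.057 for Hmgcs1, -0.42 to 0.37 for Sqle and -0.32 to 0.14 for Idi1. At DN2 it gave -0.19 to 0.11 for Hmgcs1, -0.047 to 0.22 for Srebf2, -0.35 to 0.036 for Idi1, -0.15 to 0.11 for Insig1 and -0.012 to 0.20 for Lss, and at DN3 -0.11 to 0.14 for Hmgcs1. For Insig1 at DN2 against DN1 it gave -0.027 to 0.082.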
